A study of Mus musculus with 24 samples.

Results

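The liver sinusoidal endothelial markers are 10 genes whose mRNA marks the cells that line the blood vessels of the liver. Stab1, Stab2, Lyve1, Clec4g and Fcgr2b mark the sinusoidal endothelium, and Kdr and Pecam1 are made by endothelial cells in general. Vwf, Cd34 and Plvap were taken as markers of capillaries and larger vessels. For Plvap this grouping is a choice, and its level and co-variation with the other markers are given below. The genes were chosen by symbol, with earlier results of these data known, and all 10 were found among the 41388 genes counted in the liver. Of these 10, 9 were among the 13052 genes with enough counts for testing, and Cd34 was not.

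Liver RNA was sequenced from 20 single mice, 5 in each of 4 groups, and from 4 pools that each combined the RNA of the mice of a group. All mice were male C57BL/6J mice, aged 8 weeks when the diets began, and were fasted for 4 hours before the livers were taken. In Adn-Lpin1-/- mice, Lpin1, which encodes the phosphatidic acid phosphatase lipin 1, was deleted in adipocytes by a Cre recombinase driven by the adiponectin promoter. The WT mice were littermates that carried the floxed Lpin1 alleles without the Cre, so every mouse of the 4 groups had floxed Lpin1. Mice of each genotype were given a low-fat diet (LFD, 10% of kcal from fat) or a high-fat diet (HFD, 60% of kcal from fat). The sample labels give 16 weeks of diet. The study's methods and its figure legends for the liver RNA sequencing give 5 weeks for these diets. Its methods give 16 weeks only for other diets, 1 of them high in fructose, fat and cholesterol. Why the labels differ could not be settled here. The deletion acts in adipocytes, so Lpin1 mRNA in the liver does not check the genotype labels. The comparisons ask whether loss of Lpin1 in fat, on either diet, or the diet itself was accompanied by other levels of endothelial mRNA in the liver.

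Liver sinusoids are capillaries whose endothelium is fenestrated and has no organized basement membrane, so that plasma reaches the hepatocytes directly. Their endothelial cells are among the most active scavenger cells of the body, and take up waste molecules from the blood through receptors such as stabilin 1 and stabilin 2. In chronic liver injury these cells can lose their fenestrae and take on features of ordinary capillaries, a change called capillarization, in which scavenger receptors fall and Cd34, Vwf and other vessel proteins rise.

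Total counts ranged from 36260187 to 81072794 in single mice, and the WT LFD libraries, at 36260187 to 45999456, were all shallower than those of the other groups. Values below are counts scaled to library size (CPM), with library sizes adjusted by TMM, a method that corrects for the makeup of each library, and a gene was called when its adjusted p was at or below 0.05. The 9 tested markers were above 1 CPM in all 20 libraries, so none of them passed the filter through 1 group alone. Cd34 was above 1 CPM in 3 of 20 libraries. The RNA came from whole liver, and CPM are shares of a library. More endothelial cells, more RNA per cell and a smaller share of RNA from other cells therefore cannot be told apart in any result that follows.

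On GRCm38, in the coordinates of the counted annotation, Stab1 (ENSMUSG00000042286) lies on the minus strand of chromosome 14 at 31139013 to 31168641, Stab2 (ENSMUSG00000035459) on the minus strand of chromosome 10 at 86841198 to 87008025 and Lyve1 (ENSMUSG00000030787) on the minus strand of chromosome 7 at 110850607 to 110862953. Clec4g (ENSMUSG00000074491) and Plvap (ENSMUSG00000034845) are on the minus strand of chromosome 8, at 3707064 to 3720651 and 71497754 to 71511769. Chromosome 1 holds Fcgr2b (ENSMUSG00000026656) on the minus strand at 170960558 to 170976547 and Cd34 (ENSMUSG00000016494) on the plus strand at 194938821 to 194961292. Kdr (ENSMUSG00000062960) is on the minus strand of chromosome 5 at 75932827 to 75978458, Pecam1 (ENSMUSG00000020717) on the minus strand of chromosome 11 at 106654217 to 106750628 and Vwf (ENSMUSG00000001930) on the plus strand of chromosome 6 at 125546774 to 125686679. All are protein-coding genes, and values count reads over their exons. Exon bases are shared with a gene on the opposite strand in Stab1 (109 bases, Nt5dc2), Stab2 (141, Gm16268), Clec4g (146, Gm16553) and Cd34 (148, Gm16897), which is at most 5.93% of a gene's exons, and whether reads were counted by strand is not given in the sources used here.

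Per kilobase of exon, the markers kept nearly the same order in every group, with Plvap and Clec4g at the top and Vwf and Cd34 at the bottom. Plvap, which forms the diaphragms of fenestrae and caveolae, averaged 20.8 CPM per kilobase in WT HFD mice and 28.3 in Adn-Lpin1-/- HFD mice. Clec4g, a C-type lectin of sinusoidal endothelium, averaged from 9.21 in WT LFD mice to 12.9 in Adn-Lpin1-/- HFD mice, and in every group its mice lay below those of Plvap without overlap. Fcgr2b, Stab2 and Stab1 followed, and the ranges of neighbours in the order overlapped in every group. Within single mice, Stab2 was above Stab1 in 5 of 5 WT LFD mice and 5 of 5 WT HFD mice, whereas Fcgr2b was above Stab2 in 3 of 5 mice of each of these groups. Stab1 had rank 5 of the 10 genes in WT mice on either diet, rank 3 in Adn-Lpin1-/- LFD mice and rank 4 in Adn-Lpin1-/- HFD mice. Lyve1, Kdr and Pecam1 came next, and Vwf had rank 9 in every group, at 0.314 CPM per kilobase in WT LFD mice and 1.05 in Adn-Lpin1-/- HFD mice. Cd34 was last, between 0.134 and 0.399 CPM per kilobase, and in both LFD groups its highest mouse reached above the lowest mouse for Vwf. The plot of levels per kilobase shows this order.

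**Figure D1:**
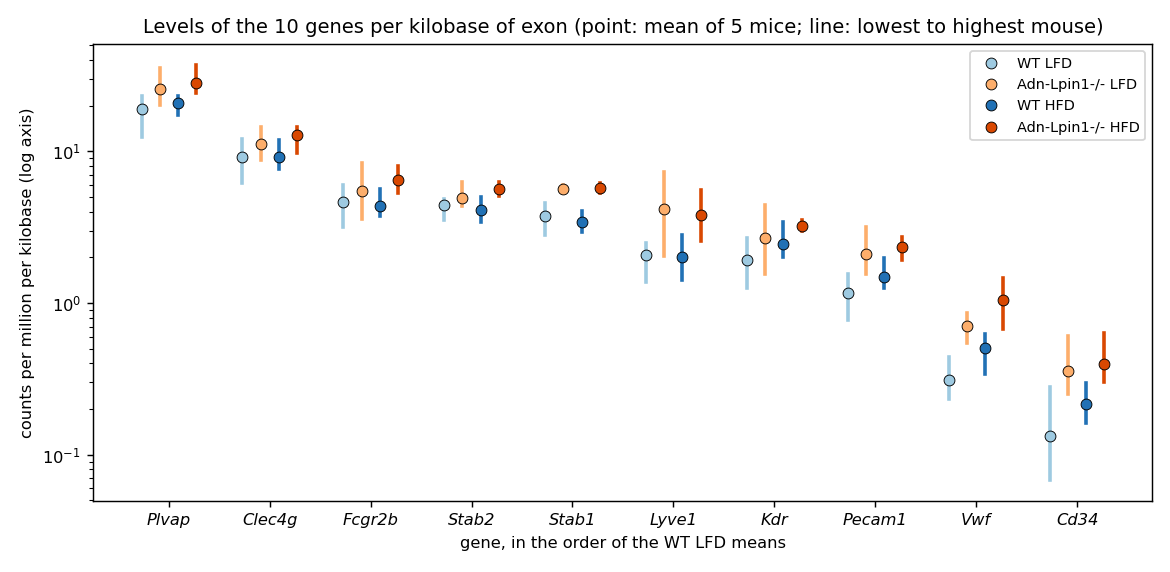
Level of each of the 10 genes in CPM per kilobase of exon on a log axis, by group, with the mean of 5 mice as a point and the lowest to highest mouse as a line. Plvap and Clec4g stand above the other genes in all 4 groups, Vwf is next to last and Cd34 last, and the WT HFD means lie near the WT LFD means for the genes from Plvap to Lyve1.

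The bases just before the start of 3 of these genes are given below, since Stab1 separated the genotypes on both diets, Clec4g overlapped between them on both, and Cd34 was the least abundant, and in these 3 genes the RefSeq start site coincides with the gene start in the counted annotation. Each sequence is the 250 bases upstream of the start on the gene's own strand, from RefSeq on GRCm38.p6, with capitals for every AGGAAG, a short form of the site bound by ETS factors such as Erg and Fli1, and for the TATA-box letters TATAAA, each also in its reverse complement (CTTCCT and TTTATA). The windows lie at chr14:31168642-31168891 on the minus strand for Stab1, chr8:3720652-3720901 on the minus strand for Clec4g and chr1:194938571-194938820 on the plus strand for Cd34.
Stab1: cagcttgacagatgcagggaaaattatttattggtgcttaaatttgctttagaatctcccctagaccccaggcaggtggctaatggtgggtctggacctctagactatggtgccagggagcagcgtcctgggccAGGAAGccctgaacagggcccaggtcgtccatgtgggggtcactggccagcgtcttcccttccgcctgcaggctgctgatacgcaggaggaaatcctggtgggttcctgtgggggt
Clec4g: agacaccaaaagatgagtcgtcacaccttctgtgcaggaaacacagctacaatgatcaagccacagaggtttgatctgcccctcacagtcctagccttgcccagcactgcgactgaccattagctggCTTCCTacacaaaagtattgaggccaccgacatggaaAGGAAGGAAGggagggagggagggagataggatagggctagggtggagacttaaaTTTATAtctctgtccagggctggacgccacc
Cd34: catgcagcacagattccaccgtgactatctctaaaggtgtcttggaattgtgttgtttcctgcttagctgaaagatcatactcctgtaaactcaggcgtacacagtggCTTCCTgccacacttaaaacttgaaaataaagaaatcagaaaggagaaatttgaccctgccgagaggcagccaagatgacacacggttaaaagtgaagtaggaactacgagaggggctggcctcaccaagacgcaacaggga
RefSeq windows were matched for 6 of the 10 genes, Stab1, Stab2, Clec4g, Fcgr2b, Kdr and Cd34. The letters AGGAAG were present in 4 of these 6 windows, those of Stab1, Stab2, Clec4g and Cd34, and in 29.5% of the windows of all 32851 RefSeq promoters of the same length. In the window of Clec4g 2 of the matches overlap each other. The TATA-box letters were present in the window of Clec4g, as TTTATA, and in 12.4% of all promoters. None of the 6 windows held AGATAA, a site of GATA factors such as Gata4, which was in 10.0% of all promoters, or TGTTTAC, a site of forkhead factors, which was in 3.2%. Both strands were searched for each motif. A match here is a run of letters and not a shown binding site, and the lack of one says only that these letters are not in this window.

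Several endothelial markers were higher in the livers of Adn-Lpin1-/- mice than of WT mice on both diets, and none was called lower. On the LFD, 4 of the 9 tested markers were called, all higher in Adn-Lpin1-/- mice, compared with 6.27% of all tested genes called higher. These were Stab1, Lyve1, Pecam1 and Vwf, which rose 1.51-fold, 1.99-fold, 1.79-fold and 2.25-fold. On the HFD, 5 of 9 were called, again all higher, compared with 9.87% of all tested genes, and Stab2 joined the same 4 genes. All 9 fold changes were positive on each diet. Their median on the log2 scale was 0.47 (LFD) and 0.57 (HFD), beside medians over all tested genes of 0.01 and 0.00. The groups did not overlap for 2 of the 10 markers on the LFD, Stab1 and Vwf, where 3.89% of all tested genes were higher without overlap. On the HFD they did not overlap for 5 of the 10, Stab1, Stab2, Vwf, Cd34 and Plvap, where the share of all tested genes was 5.78%. The calls come from the quasi-likelihood test of edgeR, with p-values adjusted over all tested genes by the Benjamini-Hochberg method. Leaving out 1 mouse at a time gave 3 to 5 called markers on the LFD, and 3 to 7 on the HFD, where it was 3 without WT HFD mouse 1, 2 or 5 or Adn-Lpin1-/- HFD mouse 2. DESeq2's Wald test called 8 markers on the HFD, adding Clec4g, Fcgr2b and Plvap. The plot of the markers by mouse shows each value.

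**Figure D2:**
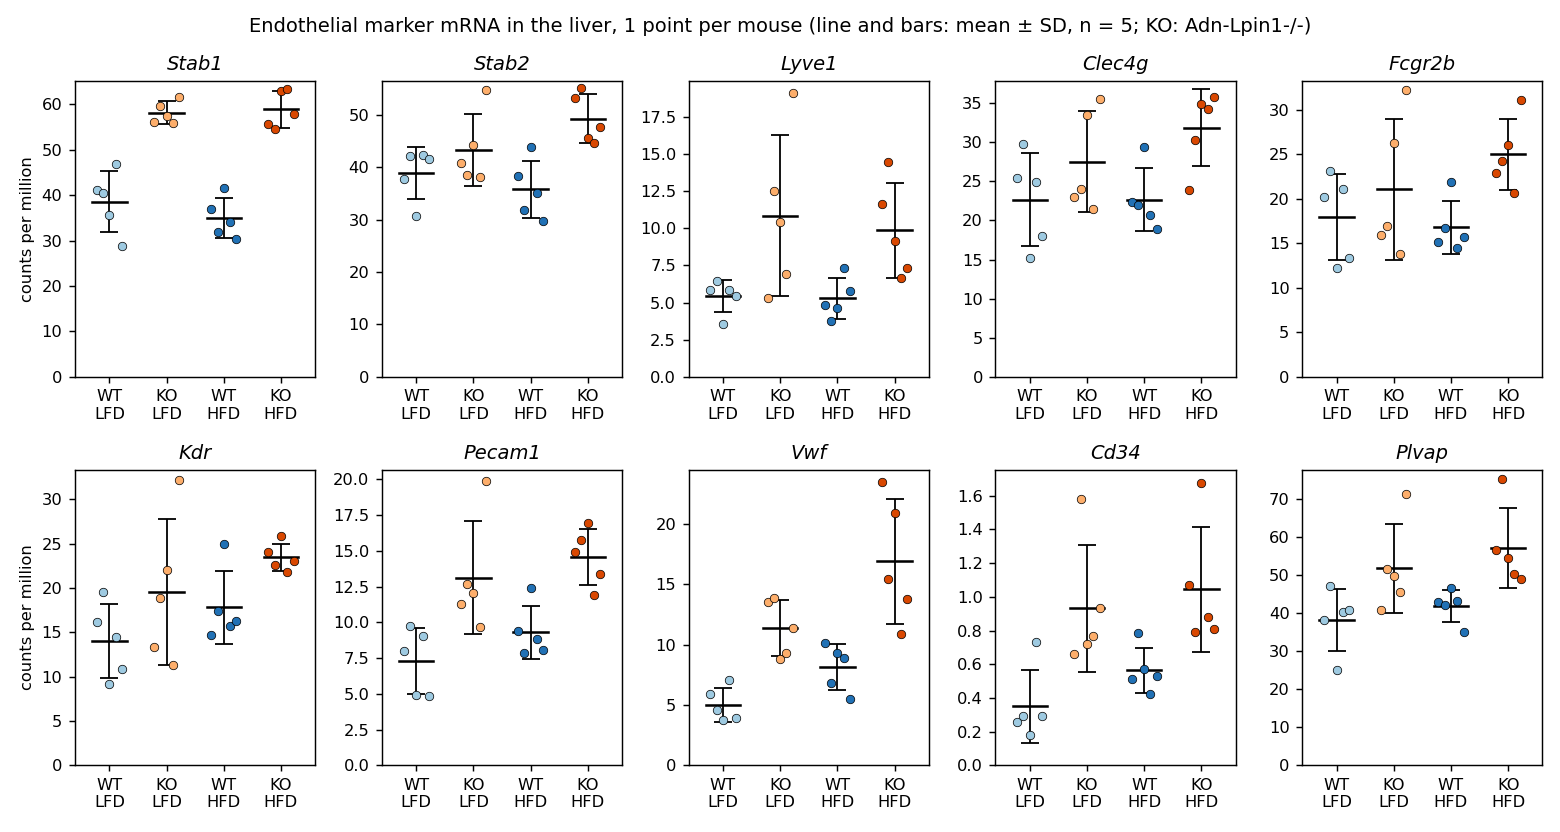
CPM of the 10 markers in each mouse of the 4 groups, with lines at the mean and bars of 1 SD (n = 5 mice per group, KO standing for Adn-Lpin1-/-). For Stab1 the Adn-Lpin1-/- mice lie at 54.5 to 63.4 CPM and the WT mice at 28.9 to 46.8 CPM, and the Vwf points of the genotypes are likewise apart within each diet.

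Stab1 encodes stabilin 1, a scavenger receptor of sinusoidal endothelium that some macrophages also make. Its level in the 5 WT LFD mice was 41.2, 40.5, 35.6, 46.8 and 28.9 CPM, and in the 5 Adn-Lpin1-/- LFD mice it was 56.2, 59.7, 57.5, 55.9 and 61.7 CPM. On the HFD, the WT mice had 36.9, 31.8, 41.6, 34.2 and 30.4 CPM and the Adn-Lpin1-/- mice 55.6, 54.5, 63.0, 63.4 and 57.9 CPM. The lowest of the 10 Adn-Lpin1-/- mice exceeded the highest of the 10 WT mice. On the LFD the means were 38.6 ± 6.72 CPM in WT mice and 58.2 ± 2.46 CPM in Adn-Lpin1-/- mice (SD, n = 5). The log2 fold change was 0.59 (SE 0.10, adjusted p = 0.000806) on the LFD and 0.75 (SE 0.10, adjusted p = 8.42e-05) on the HFD, and the call held without any 1 of the 20 mice and in all 12 other settings tried. A list of 15 macrophage genes, Stab1 not among them, summed to levels that overlapped between the genotypes on the LFD and did not on the HFD, as given further on, and its part in the Stab1 result was not tested.

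Stab2, the second stabilin and the main receptor for hyaluronan clearance in the sinusoids, was called by genotype on the HFD and not on the LFD. On the LFD, WT mice had 37.9, 42.3, 30.7, 42.3 and 41.6 CPM and Adn-Lpin1-/- mice 40.9, 38.6, 44.3, 38.2 and 54.8 CPM. On the HFD, WT mice had 38.3, 32.0, 43.8, 35.1 and 29.8 CPM and Adn-Lpin1-/- mice 53.4, 55.2, 45.7, 44.6 and 47.7 CPM. The LFD values overlapped for most mice, while the lowest Adn-Lpin1-/- HFD mouse was just above the highest WT HFD mouse. Its log2 fold change was 0.15 (SE 0.12, adjusted p = 0.405) on the LFD and 0.46 (SE 0.12, adjusted p = 0.0103) on the HFD. The difference between these effects, 0.31 (SE 0.16), was not called (adjusted p = 0.737), so the effect is not shown to differ between diets. Per kilobase, Stab1 was 85.2% ± 15.9 of Stab2 in WT LFD mice and 116% ± 13.7 in Adn-Lpin1-/- LFD mice, and 83.5% ± 2.35 and 103% ± 16.6 on the HFD. The ranges of that ratio overlapped on each diet.

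Lyve1 encodes a hyaluronan receptor of sinusoidal and lymphatic endothelium. In WT LFD mice its level was 5.87, 6.46, 3.57, 5.86 and 5.47 CPM, and in Adn-Lpin1-/- LFD mice 5.30, 12.5, 10.4, 6.92 and 19.2 CPM. On the HFD, WT mice had 4.85, 3.73, 4.65, 7.35 and 5.80 CPM and Adn-Lpin1-/- mice 11.7, 14.5, 9.13, 6.68 and 7.36 CPM. In each Adn-Lpin1-/- group 4 of the 5 mice were above every WT mouse of the same diet and 1 was within the WT range. On the HFD the lowest of those 4, mouse 5, was all but level with the highest WT mouse (7.359 and 7.353 CPM). The spread among Adn-Lpin1-/- LFD mice was the widest of the tested markers in that group relative to the mean. On the log2 scale the fold change was 1.00 (SE 0.29, adjusted p = 0.0264) on the LFD and 0.90 (SE 0.29, adjusted p = 0.0343) on the HFD. The LFD call was lost without WT LFD mouse 3 or Adn-Lpin1-/- LFD mouse 2 or 5, the last of which brought the log2 fold change to 0.69 (adjusted p = 0.1), and the HFD call was lost without WT HFD mouse 1, 2, 3 or 5 or Adn-Lpin1-/- HFD mouse 1 or 2, with an adjusted p of up to 0.107.

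Clec4g and Fcgr2b, the inhibitory Fc receptor through which sinusoidal endothelium clears small immune complexes, were not called on either diet. Clec4g ranged from 15.2 to 29.8 CPM in WT LFD mice, 21.5 to 35.5 in Adn-Lpin1-/- LFD mice, 18.9 to 29.4 in WT HFD mice and 23.9 to 35.8 in Adn-Lpin1-/- HFD mice, with medians of 24.9 and 24.1 CPM in the LFD groups. Fcgr2b ranged from 12.2 to 23.1, 13.8 to 32.2, 14.5 to 21.9 and 20.6 to 31.1 CPM in the same groups, with LFD medians of 20.1 and 16.9 CPM. On the LFD the medians of both genes were lower in Adn-Lpin1-/- mice while their means were higher, since 2 of the 5 Adn-Lpin1-/- mice, numbers 3 and 5, stood above all WT mice and the other 3 lay within the WT range. On the HFD, 4 of 5 Adn-Lpin1-/- mice were above every WT mouse for each gene. The log2 fold changes were 0.28 (SE 0.18, adjusted p = 0.319) and 0.23 (SE 0.21, adjusted p = 0.51) on the LFD, and 0.49 (SE 0.18, adjusted p = 0.0592) and 0.57 (SE 0.21, adjusted p = 0.0639) on the HFD. In DESeq2's Wald test both genes were called on the HFD (adjusted p = 0.0353 and 0.0359), as they were in edgeR with only the HFD groups fitted (adjusted p = 0.0324 and 0.0164). Fcgr2b has stretches much like those of other Fc receptor genes, and the authors counted reads with a single alignment that fell on 1 gene, so reads that fit several of these genes equally well are in none of their counts.

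Pecam1, the adhesion molecule CD31 at endothelial junctions, was higher in Adn-Lpin1-/- mice on both diets. WT LFD mice had 8.00, 9.72, 4.94, 9.04 and 4.83 CPM and Adn-Lpin1-/- LFD mice 11.3, 12.7, 12.1, 9.65 and 19.9 CPM. On the HFD, WT mice had 9.39, 7.83, 12.4, 8.85 and 8.05 CPM and Adn-Lpin1-/- mice 14.9, 15.8, 16.9, 11.9 and 13.4 CPM. On each diet 4 of the 5 Adn-Lpin1-/- mice were above every WT mouse, and the fifth lay just below the highest WT mouse. Pecam1 had a log2 fold change of 0.84 (SE 0.21, adjusted p = 0.01) in LFD mice and 0.65 (SE 0.20, adjusted p = 0.0321) in HFD mice. The LFD call held without any 1 of the 20 mice. The HFD call was lost without WT HFD mouse 1, 2, 4 or 5 or Adn-Lpin1-/- HFD mouse 1, 2 or 3, with an adjusted p of up to 0.0778.

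Kdr encodes VEGFR2, the main signalling receptor for VEGF-A in endothelium. Its range was 9.14 to 19.6 CPM in WT LFD mice, 11.3 to 32.2 in Adn-Lpin1-/- LFD mice, 14.7 to 24.9 in WT HFD mice and 21.8 to 25.8 in Adn-Lpin1-/- HFD mice. The genotypes overlapped on both diets, but on the HFD every Adn-Lpin1-/- mouse was above 4 of the 5 WT mice, and the exception was WT HFD mouse 3. The fitted log2 fold change was 0.47 (SE 0.23, adjusted p = 0.186) on the LFD and 0.40 (SE 0.23, adjusted p = 0.24) on the HFD, and neither was called. Adn-Lpin1-/- LFD mouse 5 was the highest of its group for Kdr and for 8 of the 10 markers in all, the exceptions being Vwf and Cd34. Without it the LFD log2 fold change was 0.22 for Kdr, 0.06 for Stab2, 0.02 for Fcgr2b and 0.64 for Pecam1, of which Pecam1 stayed called.

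Vwf encodes von Willebrand factor, the clotting protein stored in the endothelium of larger vessels and in platelets, and it had the largest fold change of the 9 tested markers on both diets. WT LFD mice had 5.89, 4.61, 3.72, 7.04 and 3.92 CPM and Adn-Lpin1-/- LFD mice 13.5, 13.8, 8.83, 9.31 and 11.4 CPM. On the HFD, WT mice had 10.1, 6.79, 9.29, 8.89 and 5.51 CPM and Adn-Lpin1-/- mice 23.5, 15.4, 20.9, 10.9 and 13.8 CPM. No Adn-Lpin1-/- mouse fell into the WT range of its diet. The log2 fold change was 1.17 (SE 0.22, adjusted p = 0.00187) on the LFD and 1.06 (SE 0.22, adjusted p = 0.00307) on the HFD, and both calls held without any 1 of the 20 mice and in all 12 other settings. With the trend in GC content removed, the log2 fold changes were 1.01 and 0.88, the smallest of these settings, and the exons of Vwf are 56.5% GC. Of the 6 platelet and megakaryocyte genes set beside Vwf, 1 was abundant enough to be tested, Itga2b, with a log2 fold change of 0.21 on the LFD (adjusted p = 0.287) and a rise of 0.44 on the HFD (adjusted p = 0.017). The summed level of those 6 genes was 4.35 to 5.53 CPM in WT LFD mice, 4.54 to 7.41 in Adn-Lpin1-/- LFD mice, 4.47 to 6.68 in WT HFD mice and 6.07 to 8.89 in Adn-Lpin1-/- HFD mice, with Gp1bb at 0 in all WT LFD mice, and its part in the Vwf result was not tested. Per kilobase, Vwf was 5.14% to 9.07% of Stab2 in WT LFD mice and 10.9% to 19.5% in Adn-Lpin1-/- LFD mice, ranges that did not overlap, and 10.1% to 14.4% and 13.3% to 25.0% on the HFD, which did.

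Cd34, a sialomucin of capillary endothelium that also marks blood progenitor cells, was near the limit of these libraries. WT LFD mice had 10, 13, 6, 28 and 12 counts, which is 0.257, 0.292, 0.179, 0.73 and 0.296 CPM, and Adn-Lpin1-/- LFD mice had 35, 82, 45, 40 and 57 counts, or 0.663, 1.58, 0.717, 0.769 and 0.934 CPM. On the HFD, WT mice had 0.511, 0.783, 0.571, 0.423 and 0.531 CPM and Adn-Lpin1-/- mice 1.07, 0.79, 1.68, 0.88 and 0.807 CPM. WT LFD mouse 4 was within the range of the Adn-Lpin1-/- LFD mice and the other 4 were below it, while on the HFD the groups were apart by a narrow margin. A two-sided exact permutation test of the log2 CPM of 5 mice against 5 gave p = 0.0238 on the LFD and p = 0.00794 on the HFD, the latter being the smallest p that the arrangements of 10 mice can give, with no adjustment for the other genes. In a fit with no filter on low counts the log2 fold change of Cd34 was 1.41 (SE 0.35, adjusted p = 0.0169) on the LFD and 0.88 (SE 0.33, adjusted p = 0.111) on the HFD.

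Plvap, the most abundant of the 10 per kilobase, was higher in Adn-Lpin1-/- mice on average but was not called. It ranged from 24.9 to 47.0 CPM in WT LFD mice, 40.9 to 71.3 in Adn-Lpin1-/- LFD mice, 35.04 to 46.6 in WT HFD mice and 49.0 to 75.1 in Adn-Lpin1-/- HFD mice. On the HFD the groups were apart, and on the LFD 3 of 5 Adn-Lpin1-/- mice were above every WT mouse. Plvap had a log2 fold change of 0.44 on each diet (SE 0.16), with an adjusted p of 0.0683 in LFD mice and 0.0527 in HFD mice. DESeq2's Wald test called it on both (adjusted p = 0.0412 and 0.0315). With a trend in GC content removed from each library, the log2 fold changes were 0.27 (adjusted p = 0.222) and 0.23 (adjusted p = 0.286), and the exons of Plvap, at 60.6% GC, are the most GC-rich of the 10 genes.

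**Figure D3:**
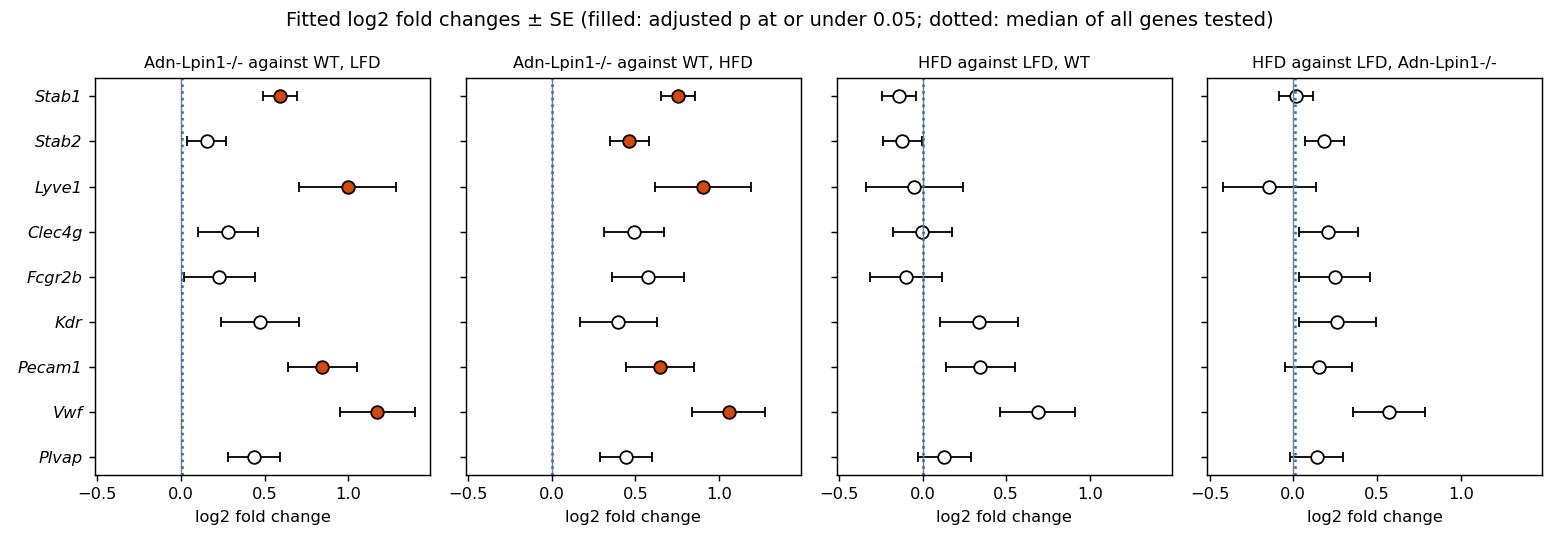
Fitted log2 fold change of the 9 tested markers with bars of 1 SE, by genotype on each diet and by diet in each genotype, with filled points for genes with an adjusted p at or below 0.05 and a dotted line at the median of all tested genes. In both genotype panels every point is right of 0, with Vwf farthest right, and in both diet panels no point is filled.

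None of the markers was called between the diets. In WT mice 0 of 9 markers were called between HFD and LFD, where 1.1% of all tested genes were called, and in Adn-Lpin1-/- mice 0 of 9 were called, where 2.46% of all tested genes were. Among the 9 tested markers, Vwf was the 1 with an unadjusted p below 0.05 in each genotype, at a log2 fold change of 0.69 (SE 0.22, adjusted p = 0.141) in WT mice and 0.57 (SE 0.21, adjusted p = 0.18) in Adn-Lpin1-/- mice, and its WT HFD mice were 3 of 5 above every WT LFD mouse. DESeq2's Wald test also called 0 markers in each genotype. Cd34, outside that fit, averaged 0.351 CPM in WT LFD mice and 0.564 CPM in WT HFD mice (two-sided exact permutation p = 0.0397, not adjusted for other genes), and its log2 difference in a fit with no filter on low counts was 0.70 (SE 0.36, adjusted p = 0.475). In Adn-Lpin1-/- mice the exact permutation p of Cd34 between the diets was 0.524. Among the sinusoidal receptors the log2 differences by diet in WT mice were -0.14 (SE 0.10) for Stab1, -0.12 (SE 0.12) for Stab2, -0.05 (SE 0.29) for Lyve1, 0.00 (SE 0.18) for Clec4g and -0.10 (SE 0.21) for Fcgr2b. In Adn-Lpin1-/- mice they were 0.02 (SE 0.10), 0.19 (SE 0.12), -0.14 (SE 0.28), 0.21 (SE 0.18) and 0.25 (SE 0.21) for the same 5 genes. Kdr, Pecam1 and Plvap differed by 0.34 (SE 0.23), 0.35 (SE 0.21) and 0.13 (SE 0.16) in WT mice and by 0.26 (SE 0.23), 0.15 (SE 0.20) and 0.14 (SE 0.16) in Adn-Lpin1-/- mice.

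The genotype effect was not shown to depend on the diet for any marker. The genotype effect on the HFD less that on the LFD was called for 0 of 9 markers and for 0% of all tested genes in edgeR, with an unadjusted p below 0.05 for 0 markers and for 938 of all tested genes, and DESeq2's Wald test called 0 markers and 30 of all tested genes. The difference was positive, that is larger on the HFD, for 5 of 9 markers, and its extremes were 0.35 (SE 0.30) for Fcgr2b and -0.20 (SE 0.29) for Pecam1. Both diets have WT and Adn-Lpin1-/- mice of their own, so the genotype results on the LFD and the HFD come from separate mice.

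Within groups, the markers rose and fell together from mouse to mouse to unequal degrees. Over the 20 mice, with each group's mean subtracted from the log2 CPM, all 36 pairs of the 9 tested markers had a positive Pearson's r, with a median of 0.589. The strongest pair was Fcgr2b and Kdr, at 0.916, followed by Clec4g and Fcgr2b at 0.884 and Kdr and Pecam1 at 0.859. The weakest pair was Stab1 and Lyve1, at 0.083, and Vwf had an r of 0.123 with Clec4g, 0.203 with Fcgr2b and 0.248 with Kdr. Stab1 and Stab2, receptors of the same family, had an r of 0.335. Plvap had an r of 0.829 with Stab2, 0.766 with Lyve1 and 0.302 with Vwf. These correlations describe mice that share library and depth within each point, and carry no test.

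**Figure D4:**
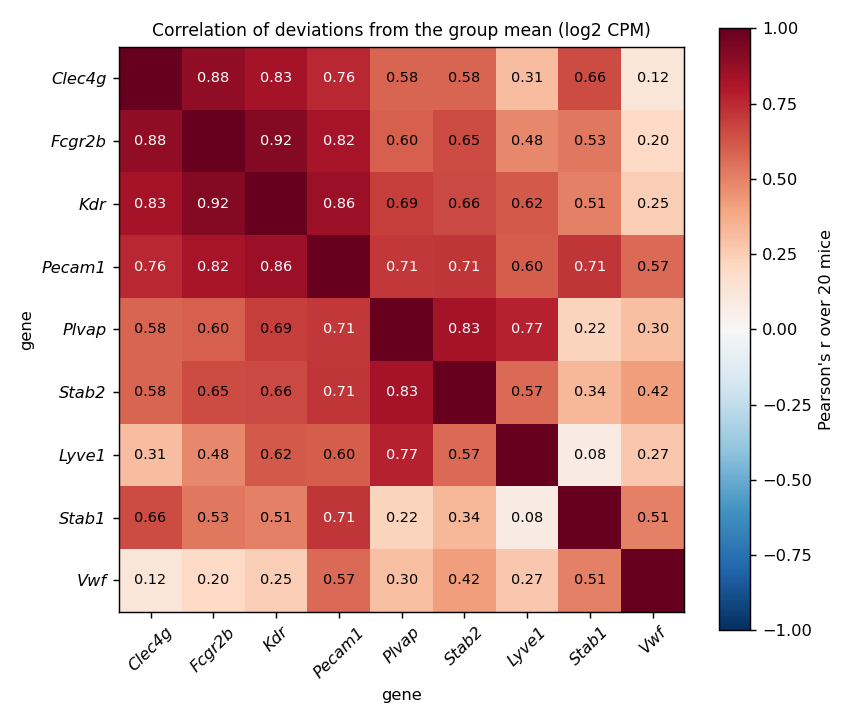
Pearson's r between the 9 tested markers over 20 mice, after subtraction of the group mean from the log2 CPM. The block of Clec4g, Fcgr2b, Kdr and Pecam1 has r from 0.756 to 0.916, and the rows of Vwf and Stab1 are the palest against Clec4g and Lyve1 respectively.

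The genes most like each marker by the same measure were in part other endothelial genes. Clec4g and Fcgr2b were both closest to Dnase1l3, a secreted DNase, at an r of 0.963 and 0.942, Kdr to Cd300lg at 0.945 and to the VEGF receptor gene Flt1 at 0.941, and Pecam1 to Lrrc8c at 0.946. Stab1 was closest to Shank3 at 0.835 and then to Adgrf5, an adhesion receptor, at 0.825, while Stab2 was closest to Bmp7 at 0.85 and Rab3il1 at 0.836. Lyve1 was closest to Timp3, a metalloproteinase inhibitor, at 0.905, Plvap to Fmnl2 at 0.898 and Vwf to Fbln2, a matrix protein, at 0.819. The next in likeness were Ano6 for Lyve1 (0.899), Marcksl1 for Plvap (0.884), Anxa1 for Vwf (0.774), Fyn for Fcgr2b (0.921) and She for Pecam1 (0.891). Those completing the 3 most like each marker were Pot1b for Stab1 (0.807), She for Stab2 (0.829), Tmsb10 for Lyve1 (0.877), Fcgr2b and Slc9a3r2 for Clec4g (0.884 and 0.873), Kdr for Fcgr2b (0.916), Aqp1 for Kdr (0.929), Gm45837 for Pecam1 (0.89), Fam117a for Vwf (0.773) and Msn for Plvap (0.873).

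Other genes known from liver endothelium were counted in lists that leave out the 10 markers, with the exception of Kdr in the list of VEGF receptors. Some genes recur between these lists, so the counts of the lists are not independent of each other. The counts of genes that rose can be read beside the 6.27% (LFD) and 9.87% (HFD) of all tested genes that were called higher. Of 24 further sinusoidal genes, all tested, 5 rose and 0 fell by genotype on the LFD, and 6 rose and 1 fell on the HFD, with median log2 fold changes of 0.35 and 0.44. Flt4, the receptor VEGFR3, rose on both diets (0.70 and 0.73, adjusted p = 0.0191 and 0.0123), as did Sema6a, a semaphorin (0.54 and 0.81, adjusted p = 0.0387 and 0.00334), and Scarf1, a scavenger receptor (0.44 and 0.67, adjusted p = 0.0246 and 0.00149). On the LFD, Thbd, the anticoagulant thrombomodulin, and Cd300lg rose by 0.80 and 0.66, with 0.54 and 0.49 on the HFD (adjusted p = 0.135 and 0.109), and on the HFD Oit3 rose by 0.65, with 0.65 on the LFD (adjusted p = 0.065). The gene that fell was Ctsl, a lysosomal protease made by most cells, by 0.34 on the HFD. Ctsl alone averaged 365 to 492 CPM and weighed heavily in the summed level of the list, which ranged from 682 to 853 CPM in WT HFD mice and 672 to 799 CPM in Adn-Lpin1-/- HFD mice and overlapped on both diets.

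Of 25 pan-endothelial genes, 9 rose and 1 fell on the LFD and 10 rose and 0 fell on the HFD, with medians of 0.45 and 0.55. Cdh5, the cadherin of endothelial junctions, rose by 0.70 and 0.90 (adjusted p = 0.0393 and 0.00833), Eng, the TGF-beta co-receptor endoglin, by 0.65 and 0.61 (adjusted p = 0.00763 and 0.0101), and Robo4, a guidance receptor of vessels, by 0.73 and 0.70 (adjusted p = 0.014 and 0.015). Egfl7, Tie1 and Ramp2 also rose on both diets, by 0.39 and 0.59, 0.41 and 0.55, and 0.52 and 0.48. The gene that fell on the LFD was S1pr1, a sphingosine 1-phosphate receptor, by 0.82 (adjusted p = 0.00218), and its difference on the HFD was -0.31 (adjusted p = 0.179). Sox18, a transcription factor of vessel development, rose by 0.97 on the HFD (0.42 on the LFD, adjusted p = 0.16), and Clec14a and Myct1 rose by 0.86 and 0.70 on the LFD (0.45 and 0.32 on the HFD, adjusted p = 0.243 and 0.305). The summed level was 199 to 292 CPM in WT HFD mice and 284 to 339 CPM in Adn-Lpin1-/- HFD mice.

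Of 25 capillary, arterial and venous genes 18 were tested, of which edgeR called 1 higher on the LFD and 5 on the HFD, with medians of 0.35 and 0.55. The LFD count, 1 of 18, is no more than the 6.27% of all tested genes called higher. Ltbp4, which binds latent TGF-beta, rose on both diets, by 0.75 and 0.55 (adjusted p = 0.00477 and 0.0225). On the HFD Ly6a, Efnb2, Vcam1 and Sox17 rose by 1.05, 0.96, 0.73 and 0.65, and on the LFD their differences were 0.29, 0.42, 0.51 and 0.20 and were not called. Cd9, a tetraspanin, was lower on the HFD than on the LFD in both genotypes, by -0.59 in WT mice and -0.91 in Adn-Lpin1-/- mice on the log2 scale. Within the 10 markers, per kilobase, Vwf, Cd34 and Plvap together were 80.9% ± 11.8 of the 5 sinusoidal markers in WT LFD mice and 85.9% ± 8.64 in Adn-Lpin1-/- LFD mice, and 93.8% ± 7.31 and 86.3% ± 15.0 on the HFD (SD, n = 5), with overlapping ranges and with most of that sum from Plvap. Since Plvap varied with Stab2 more than with Vwf, this percentage does not measure a vessel share.

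In the VEGF and angiopoietin pathways, edgeR called 0 of the 5 tested ligand genes of 7 listed by genotype on either diet, also with 0 at an unadjusted p below 0.05. Vegfb was lower on the HFD in WT mice by -0.45 and in Adn-Lpin1-/- mice by -0.75 on the log2 scale (adjusted p = 0.0279 and 0.000221). Of the 7 receptor genes, Kdr included, 3 rose on the LFD, Flt1, Flt4 and Tie1, and 2 on the HFD, Flt4 and Tie1. These calls repeat ones counted above, since Flt1 and Tie1 are also in the pan-endothelial list and Flt4 in the sinusoidal list. Flt1, the receptor VEGFR1, rose by 0.55 on the LFD (adjusted p = 0.0492) and differed by 0.30 on the HFD (adjusted p = 0.258). Of the 8 tested genes for angiocrine ligands, by which endothelium instructs neighbouring cells, 0 were called on the LFD, where 4 had an unadjusted p below 0.05. On the HFD the Notch ligands Dll4 and Jag1 rose by 0.90 and 0.64 (adjusted p = 0.00094 and 0.00578) and Hgf, which stellate cells also make, fell by 0.70 (adjusted p = 0.0373). All 13 endothelial transcription regulators had positive fold changes on both diets, with medians of 0.29 and 0.58. Of these, edgeR called 0 for the LFD, with 3 at an unadjusted p below 0.05, and 5 for the HFD. There Sox18, Tal1, Sox17, Klf2 and Fli1 rose by 0.97, 0.94, 0.65, 0.64 and 0.59. Of these, Sox18 was also counted in the pan-endothelial list and Sox17 in the capillary, arterial and venous list. Tal1 was at most 0.92 CPM in WT LFD mice and 0.88 CPM in WT HFD mice, so it passed the filter only through Adn-Lpin1-/- mice. No gene of any list was called for a change of its genotype effect with diet, so the lists are not shown to differ by diet.

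**Figure D5:**
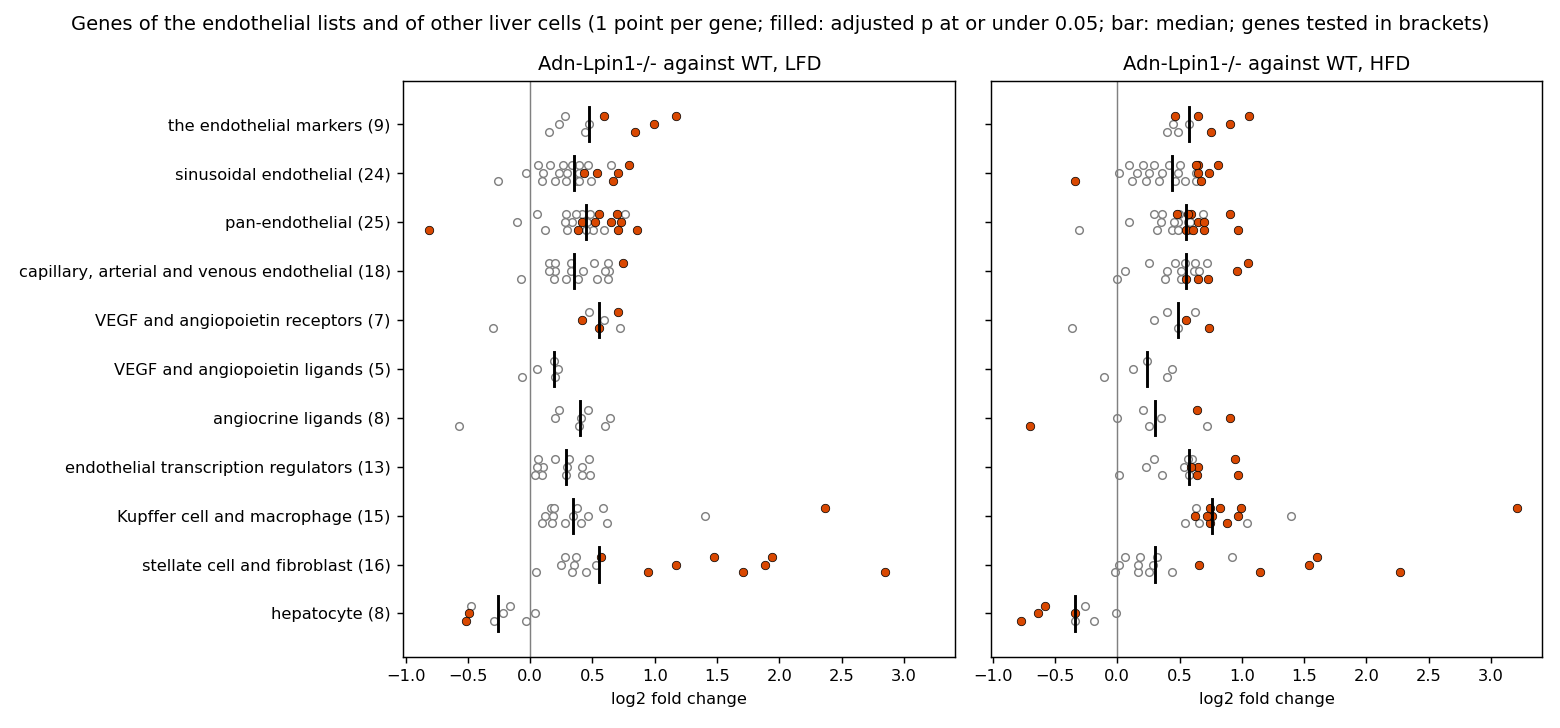
Log2 fold change by genotype of each tested gene in the panel of endothelial markers, in 7 lists of endothelial genes and in lists of macrophage, stellate and hepatocyte genes, on the LFD and the HFD, with filled points for an adjusted p at or below 0.05 and a bar at each list's median. The medians of the endothelial lists lie between 0.19 and 0.58, and that of the hepatocyte list lies below 0 on both diets. Some genes are in several of the endothelial lists and are drawn in each.

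Markers of some other liver cells differed by genotype as well. Of 15 Kupffer cell and macrophage genes 1 rose on the LFD while 10 rose on the HFD, and all 15 fold changes were positive on each diet. The LFD count, 1 of 15, is near the 6.27% of all tested genes called higher, and 9.87% were called higher on the HFD. Gpnmb, a marker of lipid-associated macrophages, rose on both diets, by 2.37 (SE 0.75) and 3.21 (SE 0.73). In WT mice Gpnmb was near the floor, at 0 to 0.39 CPM on the LFD and 0.02 to 0.42 CPM on the HFD. It passed the filter only through Adn-Lpin1-/- mice, which had 0.32 to 1.39 CPM on the LFD and 0.41 to 2.53 CPM on the HFD. Trem2, called on neither diet, passed in the same way, with at most 0.52 CPM in WT LFD mice and 0.58 CPM in WT HFD mice. For Gpnmb, the 1 LFD call, and for Trem2 the filter favoured a rise, so these genes lend no weight to the counts given here. Timd4, Csf1r, Cd163, Cd68 and Cd5l rose by 0.99, 0.97, 0.88, 0.82 and 0.76 on the HFD. The summed level of the 15 genes was 196 to 370 CPM in WT LFD mice, 253 to 488 in Adn-Lpin1-/- LFD mice, 241 to 305 in WT HFD mice and 313 to 713 in Adn-Lpin1-/- HFD mice, without overlap on the HFD. Of 16 tested stellate cell and fibroblast genes, 8 rose on the LFD and 5 on the HFD, with Col1a1, Col3a1, Col1a2, Acta2 and Pdgfrb rising on both, Col1a1 by 2.85 and 2.27. Dpt and Lum, both of fibroblast matrix, rose by 1.71 and 1.17 on the LFD (adjusted p = 0.0104 and 0.0119), and the summed level of the list was 212 to 413, 410 to 715, 372 to 499 and 411 to 751 CPM in the same groups. Of 8 hepatocyte genes 2 fell on the LFD and 4 on the HFD, Apob on both, by 0.49 and 0.58. Over all 13052 tested genes, 1877 were called on the LFD, 818 of them higher, and 2434 on the HFD, 1288 of them higher. The rest of those calls were lower. Serpina1c fell by 0.52 on the LFD, and Apoa1, Cps1 and Alb fell by 0.77, 0.64 and 0.34 on the HFD. The summed level of the 8 hepatocyte genes was 106500 to 115000 CPM in WT LFD mice and 76760 to 101200 in Adn-Lpin1-/- LFD mice, without overlap. On the HFD it was 97510 to 123700 in WT mice and 80860 to 105200 in Adn-Lpin1-/- mice, with overlap. The part of these other cell types in the endothelial differences was not tested.

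For the markers that other cells share, the lymphatic gene Ccl21a, set beside Lyve1, was at 0 in all 20 mice. Of the 2 tested genes of the 5 in that lymphatic list, Flt4, which sinusoidal endothelium makes too, rose on both diets, as given above, and Prox1, which hepatocytes make too, was not called by genotype on either diet. The part of lymphatic vessels in the Lyve1 result was not tested. Of the B cell genes set beside Fcgr2b, 2 of 5 were tested, neither was called or had an unadjusted p below 0.05, and the 5 together summed to at most 5.19 CPM in any mouse. No gene of the mesothelial, T and NK cell, cholangiocyte or erythroid lists was called by genotype, with 3 of 7, 1 of 7, 4 of 5 and 5 of 5 tested, and 2, 1, 2 and 0 of these had an unadjusted p below 0.05 on the LFD, against 0 of each list on the HFD. The 3 mesothelial genes had a median log2 fold change of 1.92 for the LFD and -0.23 for the HFD. In the pooled libraries, which repeat RNA of the same mice and were left out of the tests above, 9, 10, 9 and 9 of the 10 markers lay within the range of their 5 mice in WT LFD, Adn-Lpin1-/- LFD, WT HFD and Adn-Lpin1-/- HFD, and the exceptions were Cd34 in both WT pools and Stab1 in the Adn-Lpin1-/- HFD pool, at 54.4 CPM beside 58.7 to 66.3 CPM in the mice, each on unscaled library sizes.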

How the data were processed

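Poly(A)-selected liver RNA of 20 single mice and 4 pools was sequenced. According to the labels and the study's methods, the authors aligned reads to GRCm38 with STAR 2.5.1a and assigned those with 1 alignment on 1 gene to Ensembl 76 genes with featureCounts 1.4.6-p5, and they deposited for each library the count, the CPM and the RPKM of 41388 genes. The deposited CPM values were not used, and the deposited RPKM values served only to check the order of levels per kilobase.

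After 355 rRNA genes had been dropped, the deposited counts of the 13052 genes that exceeded 1 CPM in 4 or more of 20 single-mouse libraries were fitted with edgeR 4.0.16 in R 4.3.3 (TMM scaling, group means of 5 mice each, quasi-likelihood test, Benjamini-Hochberg adjustment, threshold 0.05). SEs are the fold change divided by the root of the F statistic. The step was tested on simulated data. Total counts were at least 36260187, and how far depth or the mice limit precision for the tested genes was not measured. Of the gene identifiers 40254 (97.3%) had a symbol. Gene types and GC content, the latter of each gene's longest transcript, came from GENCODE release M21, which is not the counted annotation. Exon overlaps came from the counted annotation.

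The 10 markers and the gene lists were chosen with earlier results of these data known. All 10 markers are named. From each list, every gene called by genotype on both diets is named, with the 6 largest changes among genes called in any comparison, which can be the same genes. The 3 tested genes most correlated with each marker are also named. DESeq2 1.42.0, limma 3.58.1 voom and other settings were alternatives, 12 in all besides leaving out each mouse. Nothing in the sources used here says which libraries were prepared together.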

Additional observations from a re-analysis of the deposited data

Results flagged for a closer look

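Of 40 sets of 5 mice, 1 for each of the 10 markers in each group, 3 held a mouse whose distance from the nearest other mouse was a large part of the whole range by Dixon's criterion, which chance alone meets in about 1 in 20 sets. Kdr was 24.9 CPM in WT HFD mouse 3 and 14.7 to 17.4 CPM in the other 4 mice, and without that mouse the genotype effect of Kdr on the HFD was a log2 fold change of 0.54 rather than 0.40. Cd34 was 0.73 CPM in WT LFD mouse 4 and 0.179 to 0.296 CPM in the others. Plvap was 75.1 CPM in Adn-Lpin1-/- HFD mouse 2 and 49.0 to 56.5 CPM in the others. The 3 mice are different animals, and no cause was tested.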

How the results depend on the processing

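In 12 other settings and without each of the 20 mice in turn, Stab1 and Vwf stayed called by genotype on both diets, Stab2 in HFD mice and Pecam1 in LFD mice, and no genotype effect of a tested marker changed direction. The HFD count of 5 called markers became 8 with DESeq2's Wald test, 8 with only the 2 groups compared, 8 with the pools as sixth libraries and 9 with voom, quality weights and the pools, and 3 with a replicate block, where Lyve1 (adjusted p = 0.0553) and Pecam1 (adjusted p = 0.0608) lost the call. The LFD count of 4 was 3 with the replicate block, where Lyve1 had an adjusted p of 0.0507, 3 with voom and quality weights (Lyve1, adjusted p = 0.0558), 5 with DESeq2's Wald test (Plvap added), 5 without a filter and 5 with filterByExpr (Cd34 added in each), and 6 in each setting with the pools (Plvap and Cd34 added). The counts by diet, 0 each, became 2 in WT mice (Vwf and Cd34, the latter at 1.41 with adjusted p = 0.0149) and 1 in Adn-Lpin1-/- mice (Vwf) with voom, quality weights and the pools, and 1 in WT mice (Vwf) with the pools as sixth libraries. The pools repeat the same mice, so these settings count RNA again. The cause of these shifts was not tested. Mice of the same number in different groups did not in general deviate together (30 pairs, r from -0.412 to 0.278, 6 above 0.1, 5 of 20 mice closest to their own number). These correlations cannot settle whether mice of the same number share a litter or batch. The replicate block is therefore not known to be a paired design. Leaving out 1 mouse gave 3 to 5 called markers for the LFD, 3 to 7 for the HFD and 0 to 0 by diet or for the difference between diets.

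Directions reversed only for diet effects near 0. Clec4g in WT mice, at -0.0005, was 0.0471 with voom and quality weights, 0.0393 with the pools added to that, 0.0065 with the pools as sixth libraries, 0.0162 without a filter, 0.0069 with filterByExpr, 0.0069 with the GC trend removed and 0.0134 with the length trend removed, and -0.12 to 0.12 leaving out 1 mouse. Stab1 in Adn-Lpin1-/- mice, at 0.0177, was -0.0569 with voom, quality weights and the pools, -0.0119 with the pools as sixth libraries and -0.0393 with the length trend removed. Leaving out 1 mouse gave -0.0175 to 0.0443 for Stab1 in Adn-Lpin1-/- mice, -0.198 to 0.053 for Lyve1 in WT mice, -0.32 to 0.16 for Lyve1 in Adn-Lpin1-/- mice and -0.214 to 0.0123 for Fcgr2b in WT mice.

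Over all tested genes, the genotype calls numbered 1877 (LFD) and 2434 (HFD), and 4177 and 4763 with voom, quality weights and the pools, or 3017 and 3781 with the pools as sixth libraries. The diet calls, 144 in WT mice and 321 in Adn-Lpin1-/- mice, were 1927 and 2327, and 686 and 959, in these settings, 400 and 577 with DESeq2, 72 and 161 with only the 2 groups compared, 670 in WT mice with voom and quality weights and 90 in WT mice with the replicate block. For the difference between diets, 0 calls became 30 with DESeq2, 190 with voom, quality weights and the pools and 4 with the pools. The order of levels per kilobase was the same with the deposited RPKM in every group. Depth limits Cd34, with 6 to 143 counts a library.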
